A study of Mus musculus with 14 samples.

Results

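The genes described here are the heat shock proteins and the DNAJ chaperones. They were chosen as the protein-coding rows of the deposited table whose symbols belong to the Hspa, Hspb, Hsp90 and Dnaja, Dnajb and Dnajc families, together with Hspd1, Hspe1 and Hsph1, and 65 of the 16124 genes in the table fit this rule. The table holds only genes that passed a minimum set by the authors, so all 65 had passed it, and family members below it are not analysed here. From textbook knowledge, but with earlier results of these data known, 18 of the 65 were set apart as inducible. These are switched on by heat or by stress of the endoplasmic reticulum (ER), and the other 47 were taken as constitutive. RNA came from mammary epithelial cells of females aged 3.5 months, 7 WT and 7 homozygous for a Usp22 transgene (Usp22 OE/OE). The mice formed littermate pairs numbered 1, 3, 4, 5, 6, 7 and 8. The transgene is a tagged mouse Usp22 cDNA at the ROSA26 locus behind the CAGGS promoter and a stop cassette, and the cassette was removed in the germline by Zp3-Cre, so that overexpression was ubiquitous and not limited to the epithelium. The WT littermates served as controls. Glands of mice of both genotypes were digested with collagenase and hyaluronidase, and then with trypsin, before RNA was extracted. The question asked of the data was whether chaperone transcripts differed between littermates when Usp22, a deubiquitinase of the SAGA coactivator complex, was overexpressed.

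Chaperones bind unfolded protein chains and keep them from aggregating. HSP70 proteins do so in cycles of ATP hydrolysis that are started by DNAJ (HSP40) partners and reset by nucleotide exchange factors such as HSPH1, while HSP90 proteins act later on a narrower set of clients, and small HSPs hold unfolded chains without using ATP. Most of these genes are expressed at all times, but one subset is switched on by heat shock factor 1 (HSF1) through heat shock elements, arrays of inverted GAA units, and another by the unfolded protein response of the ER.

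The libraries held between 20125106 and 41835978 fragments on genes (median 37838929). Usp22 was between 3500 and 5380 normalized counts in WT and between 74950 and 144300 in OE/OE, so each library matched its genotype. All 12 epithelial markers were in the table, with summed levels of 384032 to 629774 normalized counts in WT and 416806 to 681963 in OE/OE, and 1 of them, Cldn7, was higher in OE/OE at an unadjusted p of 0.05 or less. Genes listed as markers of other cells were also present, none at 0 in any library. Which cells expressed these genes, epithelial cells included, was not tested. Of 10 adipocyte markers 5 were lower in OE/OE (sums of 13950 to 34710 in WT and 10104 to 31528 in OE/OE). Of 10 fibroblast markers 3 were lower (93222 to 183976 and 62845 to 135531). None of the 48 markers of skeletal muscle, smooth muscle, endothelium, macrophages and lymphocytes passed. All 10 markers in each of the fibroblast, smooth muscle, endothelial and macrophage lists had a negative log2 fold change, while 10 of 12 epithelial markers had a positive one. Positive were also 2 of 10 adipocyte, 5 of 10 skeletal muscle and 3 of 8 lymphocyte markers. Differences of the lists as sets were not tested. The OE/OE library of pair 4 stood apart, with the lowest endothelial sum (18080, against 51239 to 110284 in the others) and the lowest sum of immediate-early genes. It also had the lowest adipocyte (10104), fibroblast (62845), skeletal muscle (772) and lymphocyte (531) sums. Its smooth muscle (107406) and macrophage (19628) sums were not the lowest, and its epithelial sum was 671757. In bulk RNA, fewer cells of a type and less RNA per cell cannot be told apart.

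Over all 65 chaperone genes, 5 were higher and 1 was lower in OE/OE at an unadjusted p of 0.05 or less (limma on log2(normalized count + 1), blocked by littermate pair), and 59 did not pass. The 5 that rose were Hsph1, Dnaja1, Hspa1b, Hspb1 and Hsp90aa1, all cytosolic chaperones of the heat shock response, and the 1 that fell was Dnajc12, a constitutive DNAJ protein. Of all genes in the table, 1.95% were called higher and 1.85% lower, or 3.81% in either direction, against 9.23% of the chaperone genes. None of the 65 passed Benjamini-Hochberg adjustment over all genes, with a limma adjusted p of 1.00 for each, and none passed it under any of the 17 alternatives. WT and OE/OE ranges overlapped for every one of the 65, while 0.0434% of all genes had ranges that did not. Only Hsph1 of the 65 was higher in each of the 7 pairs, which 0.887% of all genes were.

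By limma with the pair as a block the higher calls lay in 1 class. Among 11 heat-inducible cytosolic chaperones 5 were higher (45.5%), all 11 had a positive log2 fold change, from 0.15 to 0.54, and the median was 0.32, against a median of -0.001 over all genes. Among 7 ER-stress-inducible chaperones none passed (median 0.04, 4 positive). Among the 47 constitutive members 1 was lower and none was higher, a called share of 2.13%, and the median was 0.02 with 27 positive. Under some of the alternatives given below the constitutive Hsp90ab1, Hspd1 or Dnajc6 was called higher. The heat-inducible genes moved together from pair to pair, so that their calls are not separate pieces of evidence. The classes were drawn with earlier results of these data known, so the share of calls in a class is only a description. Differences between the classes were not tested.

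**Figure D1:**
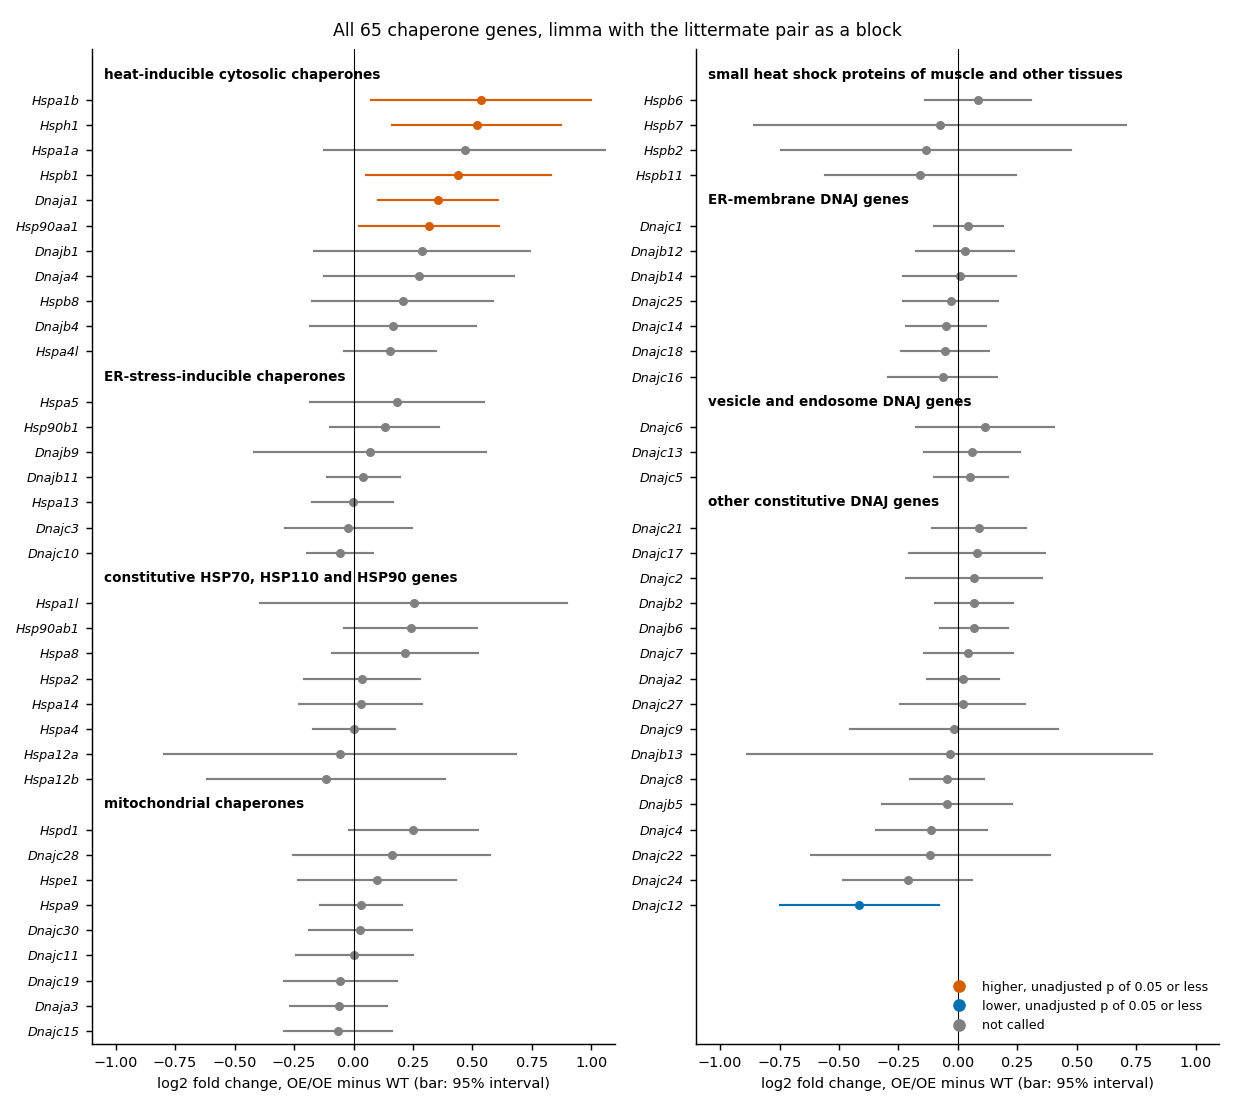
Log2 fold change of each of the 65 chaperone genes (x axis, OE/OE minus WT on the log2(normalized count + 1) scale), grouped by class, with bars for the 95% interval from limma with the pair as a block. The 5 genes called higher all lie in the heat-inducible cytosolic class, and Dnajc12 is the 1 gene called lower.

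Of the 65 genes 52 had a promoter in the RefSeq table for GRCm38.p6, and the 250 bases before each start were searched for paired inverted GAA units, the letters GAANNTTC or TTCNNGAA. Of the 5 genes called higher, Hsp90aa1 was not searched. Both letter patterns read the same on both strands, and overlapping matches were counted. At least 1 match was found in 7 of 10 heat-inducible genes (70.0%), in 1 of 6 ER-stress-inducible genes (16.7%) and in 5 of 36 constitutive genes (13.9%), against 14.5% of all 27025 genes with a promoter. A match is a description of the letters and does not show binding. The 250 bases before Hspa1a, the main stress-induced HSP70 gene, are shown because this promoter is a standard example of heat shock control. They lie at chr17:34972157-34972406 on the minus strand, are written 5′ to 3′, and have the match in capitals, starting 104 bases before the start.
Hspa1a: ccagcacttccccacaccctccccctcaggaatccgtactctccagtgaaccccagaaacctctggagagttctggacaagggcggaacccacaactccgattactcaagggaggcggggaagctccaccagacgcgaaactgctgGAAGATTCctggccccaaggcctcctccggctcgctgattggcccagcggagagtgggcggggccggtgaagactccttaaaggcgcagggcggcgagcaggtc

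Hspa1b, the neighbouring copy, was identical to Hspa1a at 247 of these 250 positions. For the other genes 30 bases around the first match are given, on the gene's own strand with matches in capitals, to show how the arrays differ between the genes that rose (Hsph1, Dnaja1, Hspa1b and Hspb1), a heat-inducible gene that did not pass (Dnaja4) and the mitochondrial pair Hspd1 and Hspe1, which share 1 promoter between them. The windows are at chr17:34959324-34959353 (minus strand) for Hspa1b, chr5:149636351-149636380 (minus strand) for Hsph1, chr4:40722333-40722362 (plus strand) for Dnaja1, chr5:135887801-135887830 (plus strand) for Hspb1, chr9:54699458-54699487 (plus strand) for Dnaja4 and chr1:55088053-55088082 for Hspd1, on the minus strand.
Hspa1b: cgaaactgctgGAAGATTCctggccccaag
Hsph1: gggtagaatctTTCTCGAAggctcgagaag
Dnaja1: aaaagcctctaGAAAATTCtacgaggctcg
Hspb1: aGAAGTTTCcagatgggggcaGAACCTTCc
Dnaja4: ggaacctccgcGAACGTTCtgggcctatgt
Hspd1: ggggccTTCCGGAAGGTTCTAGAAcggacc
Hspb1 had a pair of matches in the window and Hspd1 an overlapping run of 3. Dnaja4 had a further match 52 bases before the start, outside the window shown. Dnaja1, Dnaja4 and Hspd1 also had another listed start with no match before it. No match lay in the windows searched for Dnajb1, Hspa4l and Hspb8, which says only that these letters were not there.

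Hsph1, an HSP110 protein that exchanges nucleotide on HSP70, had the smallest p of the 65 (GRCm38 chromosome 5, 149614287 to 149636376, minus strand). In WT its libraries of pairs 1, 3, 4, 5, 6, 7 and 8 held 5953, 6412, 5417, 5000, 3003, 7032 and 8066 normalized counts, and in OE/OE 6491, 9406, 5744, 9406, 7753, 10240 and 8325. The OE/OE mouse was above its WT littermate in every pair, although the groups overlapped. The WT mean was 5840 ± 1615 and the OE/OE mean 8195 ± 1645 (SD, n = 7 per genotype), and the log2 fold change was 0.52 ± 0.16 (standard error, limma unadjusted p = 0.00886). Flipping the signs of the 7 pair differences (exact, two-sided) gave the lowest p this design can reach, 0.0156. The gain ran from 0.05 (pair 8) to 1.37 (pair 6) on the log2 scale. No 75-base stretch of Hsph1 transcripts was shared with another gene.

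Dnaja1, a DNAJ protein that delivers unfolded chains to cytosolic HSP70, lies on chromosome 4 (40722150 to 40737149, plus strand). It had 11290, 13830 and 17970 normalized counts as the lowest, median and highest WT values and 15030, 17440 and 21100 in OE/OE. It was higher in OE/OE in 5 of 7 pairs and near 0 in the others, pairs 4 (-0.06) and 8 (-0.07). Its log2 fold change was 0.36 (standard error 0.11, limma unadjusted p = 0.0110), with an exact sign-flip p of 0.0625. Hsph1 and Dnaja1 were the members called under each of the 17 alternatives, while the others were lost in some.

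Hspa1b and Hspa1a, the stress-induced HSP70 genes, lie side by side on chromosome 17 (34956436 to 34959238 and 34969190 to 34972156, minus strand). Hspa1b held 19870, 21340, 16800, 12520, 11480, 19320 and 26120 normalized counts in the WT libraries in pair order and 36610, 27790, 12640, 25800, 31240, 27290 and 24560 in OE/OE. Hspa1a held 11270, 13590, 10200, 6094, 7137, 11250 and 15320 in WT and 21960, 17380, 5421, 13490, 21040, 14830 and 12960 in OE/OE. Both genes were higher in OE/OE in pairs 1, 3, 5, 6 and 7 and lower in pairs 4 and 8, and both had their highest value of the 14 libraries in the OE/OE mouse of pair 1. Hspa1b rose by a log2 fold change of 0.54 ± 0.21 (SE, limma unadjusted p = 0.0280, exact sign-flip p = 0.109). For Hspa1a the log2 fold change was 0.47 with a 95% interval of -0.12 to 1.06 (limma unadjusted p = 0.107). Of the 75-base stretches of Hspa1a transcripts 52.7% also occur in Hspa1b, so the split of reads between them is uncertain, and 19.0% of the Hspa1a exons lie opposite Gm20481. Without pair 4 both genes were called higher (log2 fold changes of 0.69 and 0.70), and without pair 1, 5, 6 or 7 Hspa1b was not called (0.38 to 0.54).

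Hspb1 (HSP25, a small HSP that binds unfolded chains and actin filaments; chromosome 5, 135887919 to 135889563, plus strand) ranged from 10990 to 21660 normalized counts in WT (median 15650) and from 15200 to 29530 in OE/OE (median 19010). It was higher in OE/OE in 5 of 7 pairs and fell by 0.19 in pair 4 and by 0.41 in pair 8 on the log2 scale. Its log2 fold change was 0.44 (standard error 0.17, limma unadjusted p = 0.0298, exact sign-flip p = 0.0781). Hsp90aa1, the stress-inducible cytosolic HSP90 (chromosome 12, 110690605 to 110702728, minus strand), had 24520, 32130 and 38730 normalized counts as the lowest, median and highest values in WT and 32680, 40300 and 47430 in OE/OE. It too was higher in the same 5 pairs, with a log2 fold change of 0.32 ± 0.13 (SE, limma unadjusted p = 0.0366, exact sign-flip p = 0.0625). Both values carry uncertainty from near-identical copies, since 46.4% of the Hspb1 and 42.8% of the Hsp90aa1 75-base stretches also occur in other genes, mainly the pseudogenes Hsp25-ps1 and Gm12346. Neither gene was called without pair 1, 3, 5, 6 or 7 (log2 fold changes of 0.35 to 0.43 for Hspb1 and 0.23 to 0.32 for Hsp90aa1), nor by a per-gene paired test on untransformed counts.

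The remaining 5 heat-inducible genes did not pass. Dnajb1, the main inducible DNAJ partner of HSP70, ranged from 5628 to 11260 normalized counts in WT and from 6223 to 19690 in OE/OE, a log2 fold change of 0.29 with a 95% interval of -0.17 to 0.74. Dnaja4 was at 0.28 (-0.12 to 0.67), Hspb8, which works with BAG3 in selective autophagy, at 0.21 (-0.17 to 0.59), Dnajb4 at 0.17 (-0.18 to 0.52) and Hspa4l, an HSP110 relative, at 0.15 (-0.04 to 0.35). Dnajb1, Dnaja4 and Hspb8 were higher in OE/OE in the same 5 pairs as Hspa1a and lower in pairs 4 and 8. Hspa4l was instead lower in pair 1 and higher in the other 6, and without pair 1 it was called higher (0.21). Of the Dnaja4 exon bases 44.1% lie opposite Wdr61. The strand setting of the counting is not given in the sources used here, so in that part reads from the 2 genes cannot be told apart.

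**Figure D2:**
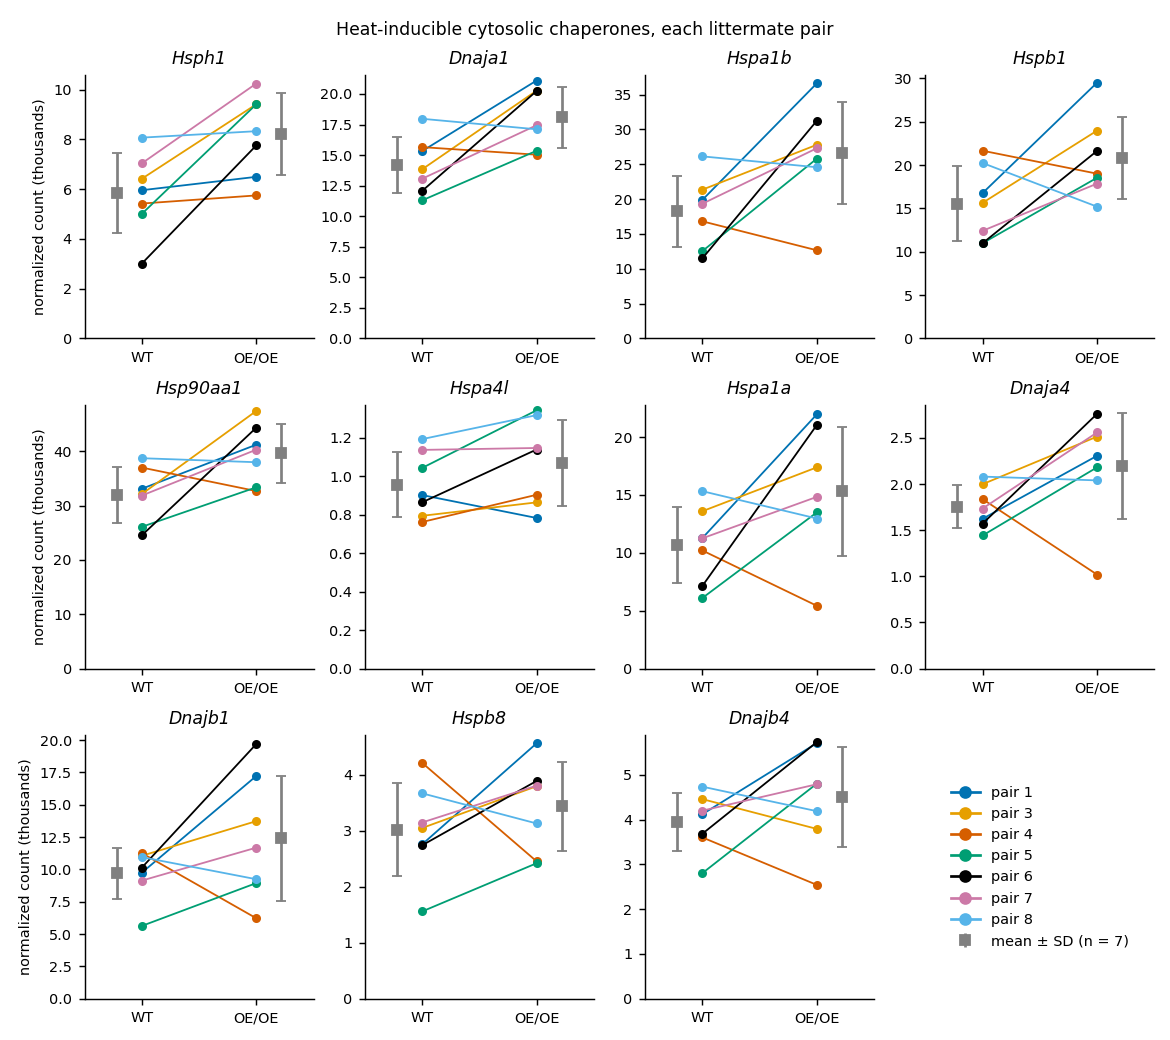
Normalized counts (y axis from 0, in units of 1000) of the 11 heat-inducible cytosolic chaperones in WT and OE/OE mice, with a line for each of the 7 littermate pairs and squares for the mean ± SD (n = 7). Lines climb from WT to OE/OE for most pairs, and those of pairs 4 and 8 descend for every gene shown except Hsph1 and Hspa4l.

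The size of the difference varied from pair to pair. The median log2 ratio of the 11 heat-inducible genes was 0.51 in pair 1, 0.36 in pair 3, 0.67 in pair 5, 0.86 in pair 6 and 0.40 in pair 7, but -0.41 in pair 4 and -0.09 in pair 8. In pairs 5, 6 and 7 all 11 were higher in OE/OE, and in pairs 4 and 8 only 2 of 11 were. Over the 47 constitutive members the pair medians lay between -0.05 and 0.13, and over all genes between -0.02 and 0.04. Of the squared deviations of log2 values over the 14 libraries, a median of 15.6% went with genotype and 39.9% with pair among the heat-inducible genes, while over all genes these shares were 1.43% and 73.9%. Pair takes 6 of the 13 degrees of freedom and genotype 1, so the shares compare with other genes and not with each other. Leaving out pair 4 gave 13 called members, 11 higher and 2 lower, with Hspa1a, Dnajb1, Dnaja4, Hspb8, Dnajb9 and Dnajc6 added on the higher side and Dnajc24 on the lower, and 8.47% of all genes were then called. Leaving out pair 5 or pair 6 gave 3 called members (Hsph1, Dnaja1 and Dnajc12), with 3.00% and 2.36% of all genes called. Leaving out pair 7 gave 2 (Hsph1 and Dnaja1), with 3.09% of all genes called. Leaving out pair 1 gave 5 (Hsph1, Dnaja1, Dnajc12, Hspa4l and Hspd1), with 7.42% of all genes called. In both of these settings the share of the members was near the background.

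**Figure D3:**
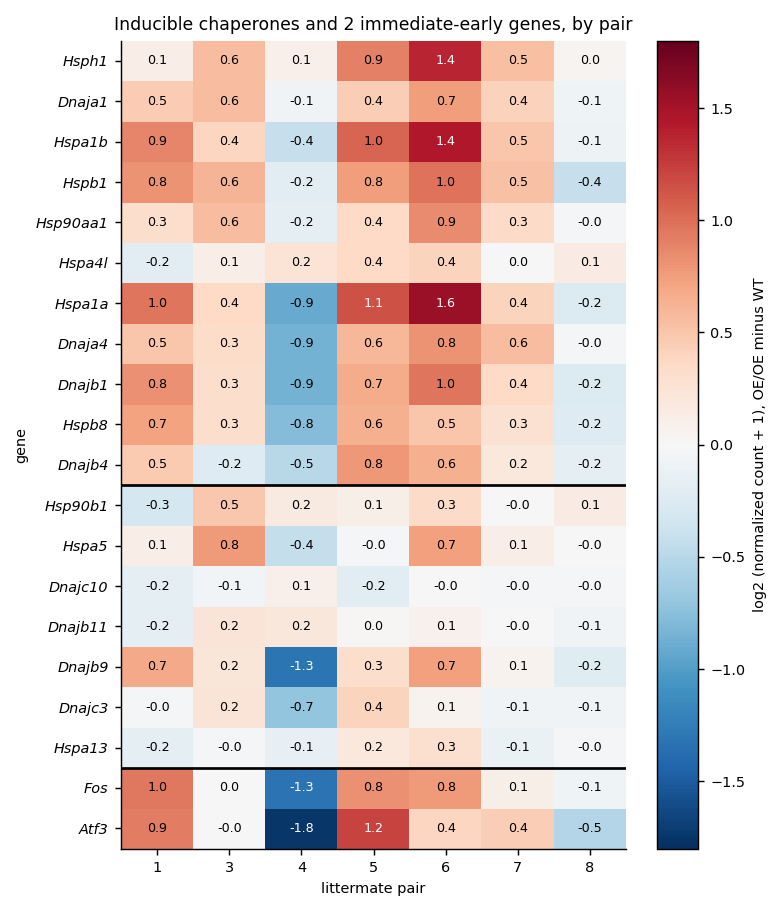
Log2 difference between OE/OE and WT within each littermate pair (columns) for the 18 inducible chaperones and for Fos and Atf3 (rows), on a color scale centered on 0. Pairs 1, 3, 5, 6 and 7 are mostly positive for the heat-inducible genes, and pairs 4 and 8 are negative for most of them. Pair 4 reaches -0.91 for Hspa1a. Among the ER-stress-inducible genes Dnajb9 reaches -1.32 in pair 4.

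Immediate-early genes, which cells switch on within minutes of a stimulus, including tissue dissociation, varied with the heat-inducible chaperones from pair to pair. Of 20 such genes none passed the test, 19 had a positive log2 fold change and the median was 0.11. Their summed level was 398533 to 659017 normalized counts in WT and 278542 to 932581 in OE/OE, with the lowest value in the OE/OE mouse of pair 4 and the highest in that of pair 1. All 20 were higher in OE/OE in pairs 1 and 6, and all 20 were lower in pair 4. Fos, an AP-1 subunit, had a log2 fold change of 0.18 (95% interval -0.39 to 0.74; called higher without pair 4, at 0.43), and Atf3, a stress-induced transcription factor, one of 0.10 (-0.60 to 0.80). The part of tissue handling in the chaperone differences was not tested.

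Over the 7 pairs the log2 differences of Hspa1a were set against those of 7 other genes, and those of Hspa5 against 5, giving 12 relations with exact permutation tests (two-sided, adjusted by Benjamini-Hochberg over the 12, for r and for rho apart). Hspa1a followed Hspa1b (Pearson r = 0.994, exact p = 0.000198, adjusted 0.00238; Spearman rho = 1.00, exact p = 0.000397, adjusted 0.00476), a pair of genes that share sequence, and Dnajb1 (r = 0.979, exact p = 0.000595, adjusted 0.00357; rho = 0.964, exact p = 0.00278, adjusted 0.0167), which shares no 75-base stretch with another gene. It also followed Hspb1 (r = 0.900, exact p = 0.00556, adjusted 0.0167; rho = 0.893, exact p = 0.0123, adjusted 0.0492). Without pairs 4 and 6, the 2 farthest from the median of Hspa1a, these r values were 0.997, 0.959 and 0.883. For Hsp90aa1 r was 0.860 (exact p = 0.0145, adjusted 0.0249; rho = 0.750, exact p = 0.0663, adjusted 0.0884) and for Hsph1 0.772 (exact p = 0.0367, adjusted 0.0511; rho = 0.821, exact p = 0.0341, adjusted 0.0818), and without pairs 4 and 6 these fell to 0.521 and 0.547, so both rest on those pairs. Hspa1a also varied with Fos (r = 0.932, exact p = 0.00377, adjusted 0.0151; rho = 0.857, exact p = 0.0238, adjusted 0.0714; 0.908 without pairs 4 and 6) and Atf3 (r = 0.881, exact p = 0.00913, adjusted 0.0219; rho = 0.786, exact p = 0.0480, adjusted 0.0884; 0.979 without them). By rho the relations with Hsph1, Hsp90aa1, Fos and Atf3 did not pass 0.05 after adjustment. Each point in these relations is a difference between the same 2 libraries for both genes.

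**Figure D4:**
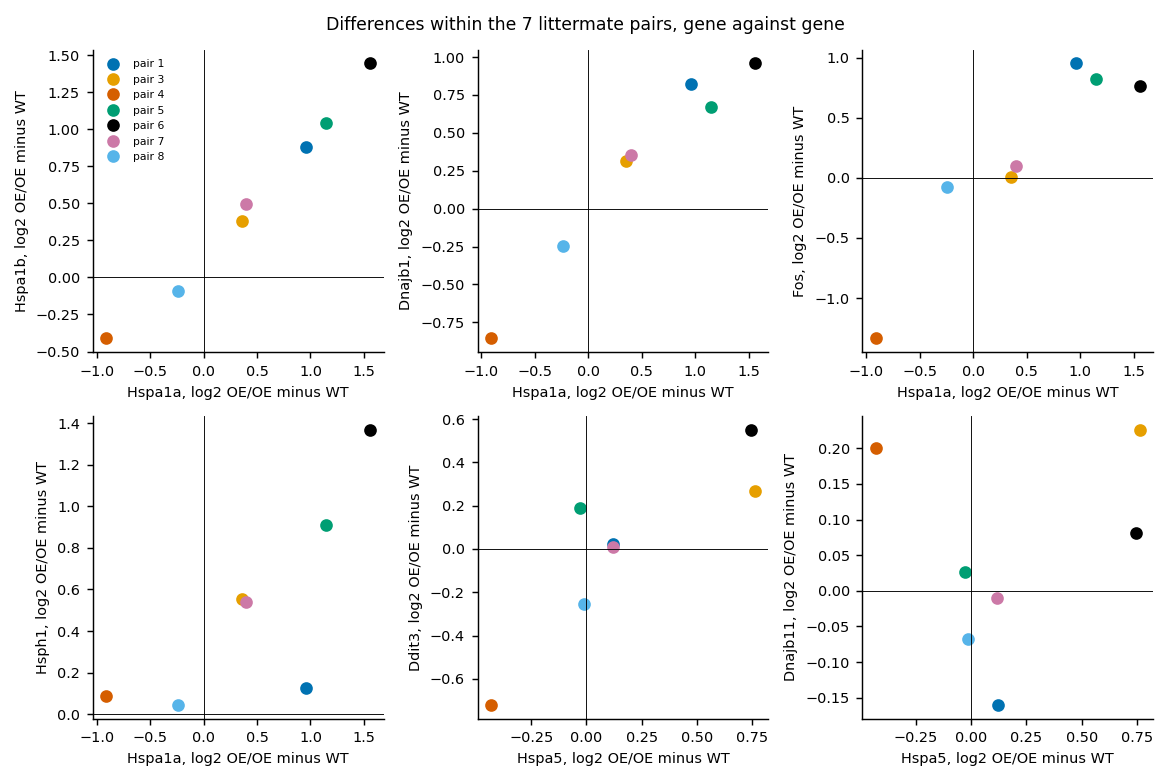
Log2 difference between OE/OE and WT for one gene against another, each point being 1 of the 7 littermate pairs. Hspa1b and Dnajb1 lie close to a line against Hspa1a (r = 0.994 and 0.979), and pair 4 lies at the low end for Hspa1a and Fos. The other panels set Hsph1 against Hspa1a, and Ddit3 and Dnajb11 against Hspa5.

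ER chaperones did not pass the test. Hspa5 (BiP, the HSP70 of the ER; chromosome 2, 34771970 to 34777547, plus strand) ranged from 47720 to 87100 normalized counts in WT (median 66170) and from 56650 to 110300 in OE/OE (median 71820), a log2 fold change of 0.18 with a 95% interval of -0.18 to 0.55. It was 0.09 without pair 3 and 0.09 without pair 6, 0.28 without pair 4 and 0.06 with quantile normalization, and it was not called in any of these. The OE/OE mouse of pair 3 had the highest value and the WT mouse of pair 6 the lowest, and 4 of 7 pairs were higher in OE/OE. Hsp90b1 (GRP94, the ER HSP90) was at 0.13 (-0.10 to 0.36), Dnajb9, a DNAJ partner of BiP, at 0.07 (-0.42 to 0.56), and Dnajb11, another BiP partner, at 0.04 (-0.11 to 0.20). Hspa13 was at -0.004, Dnajc3, an inhibitor of the kinase PERK and a BiP partner, at -0.02, and Dnajc10, an ER reductase with a J domain, at -0.06 (-0.20 to 0.08). Dnajc10 had the smallest SD of the 65 over the 14 libraries, 0.075 on the log2 scale, with values between 3016 and 3699 normalized counts.

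The differences of Hspa5 within pairs were set against those of 3 other ER chaperones and of Xbp1 and Ddit3. For Hsp90b1 r was 0.513 (exact p = 0.245, adjusted 0.267; rho = 0.321, exact p = 0.498, adjusted 0.543). For Dnajb11 it was 0.196 (exact p = 0.662, adjusted 0.662; rho = 0.143, exact p = 0.783, adjusted 0.783). Neither relation passed 0.05, and without pairs 3 and 6 the r values turned to -0.615 and -0.889. For Dnajb9 r was 0.710 (exact p = 0.0641, adjusted 0.0769; rho = 0.607, exact p = 0.167, adjusted 0.200; 0.917 without those pairs). Its largest change was in pair 4, where it fell by 1.32 on the log2 scale. Xbp1, the transcription factor of the IRE1 branch, gave r = 0.796 (exact p = 0.0383, adjusted 0.0511; rho = 0.750, exact p = 0.0663, adjusted 0.0884; 0.651 without those pairs) and Ddit3 (CHOP) r = 0.867 (exact p = 0.0141, adjusted 0.0249; rho = 0.750, exact p = 0.0663, adjusted 0.0884; 0.862 without them). After adjustment only the relation of Hspa5 with Ddit3 passed 0.05 by r, and no relation of Hspa5 passed it by rho.

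The chaperone genes spanned a wide range of levels. Per kb of exon, the mean level over the 14 libraries was highest for Hsp90ab1 (35550 normalized counts per kb), the constitutive cytosolic HSP90, followed by Hspb1 (17630), Hspa8 (17370), the constitutive cytosolic HSP70, Hspa5 (17080) and Hsp90aa1 (9099), and it was lowest for Dnajb13 (6.68), a DNAJ protein of sperm tails and cilia. Other genes hold 46.4% of the 75-base stretches of Hspb1, 33.0% of those of Hspa8 and 42.8% of those of Hsp90aa1, but none of those of Hspa5. How such shared reads were counted is not stated, so the order of Hspb1, Hspa8 and Hspa5 is uncertain. Hsp90ab1 (chromosome 17, 45567775 to 45573271, minus strand) had 76980, 104000 and 114500 normalized counts as the lowest, median and highest WT values and 101800, 113600 and 129700 in OE/OE. It was higher in OE/OE in 6 of 7 pairs and level in pair 8 (-0.01), with a log2 fold change of 0.24 (95% interval -0.04 to 0.52, limma unadjusted p = 0.0849, exact sign-flip p = 0.0312). By edgeR and DESeq2 on the recovered fragments, limma without a trend and the per-gene paired test it was called higher. Hspa8 was at 0.22 (-0.09 to 0.52), higher in 6 of 7 pairs, and Hspa12a, a distant HSP70 relative, at -0.06 (-0.80 to 0.68), with one of the largest SDs of the 65 (0.785). Of the 8 genes in this class, which also holds Hspa2, Hspa4, Hspa14, Hspa12b and Hspa1l, 6 were positive and none passed, with log2 fold changes between -0.12 and 0.25.

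**Figure D5:**
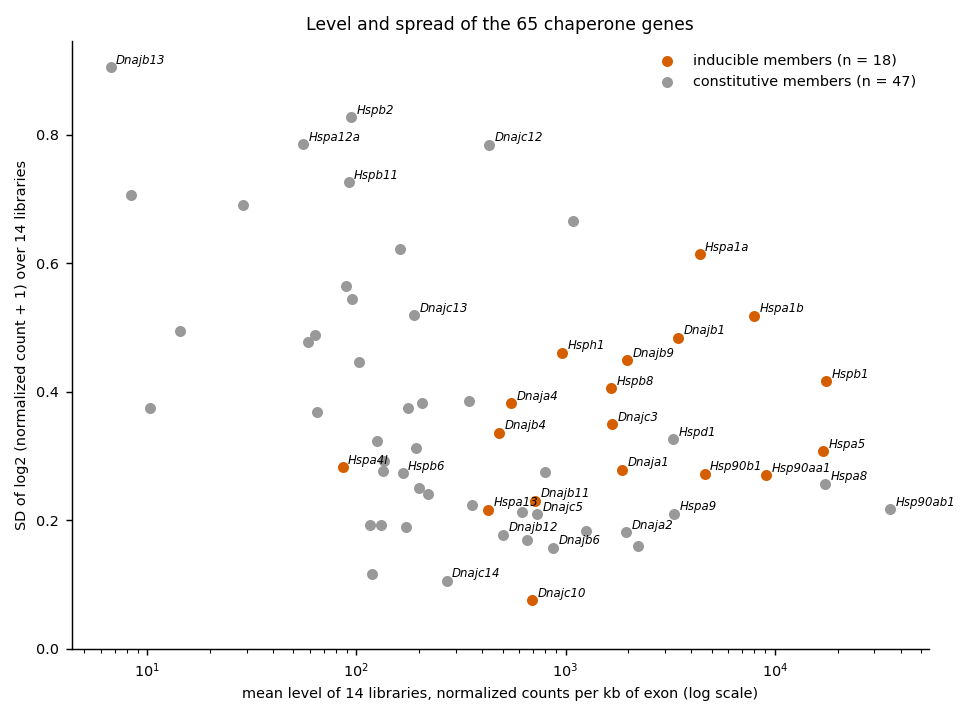
SD of log2(normalized count + 1) over the 14 libraries (y axis) against the mean level in normalized counts per kb of exon (x axis, log scale) for the 65 chaperone genes, with inducible and constitutive members in different colors. Dnajb13, at the lowest level (6.68), has the largest SD (0.905), and Dnajc10 has the smallest (0.075).

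Of 9 mitochondrial chaperones none passed (median 0.03, 6 positive, from -0.07 to 0.25). Hspd1 (HSP60, the chaperonin of the matrix; chromosome 1, 55077835 to 55088243) ranged from 5670 to 9313 normalized counts in WT and from 6493 to 13780 in OE/OE, with the highest value in the OE/OE mouse of pair 4, the pair with the lowest median ratio of the heat-inducible genes. Its log2 fold change was 0.25 (95% interval -0.02 to 0.52, limma unadjusted p = 0.0663), with 6 of 7 pairs higher, and it was called higher with libraries centred on the median (0.27) and without pair 1 (0.35). Hspe1, its HSP10 partner, was at 0.10 (-0.23 to 0.43). The class also holds the DNAJ genes Dnaja3, Dnajc11, Dnajc15, Dnajc19, Dnajc28 and Dnajc30. Hspa9 (mortalin, the HSP70 of the matrix) was at 0.03 (-0.14 to 0.20), with values of 11230 to 16680 in WT and 11920 to 16640 in OE/OE.

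The small HSPs outside the heat-inducible class did not pass the test. Hspb6 was at 0.08 (95% interval -0.14 to 0.31), with 263.4 to 496.3 normalized counts over all libraries and an SD of 0.273 on the log2 scale. Hspb11, a component of intraflagellar transport, was at -0.16 (-0.56 to 0.24) and Hspb2 at -0.13 (-0.74 to 0.48), with SDs of 0.726 and 0.827. Hspb2 had 23.31 to 139.6 normalized counts in WT and 28.05 to 136.5 in OE/OE, and 30.2% of its exon bases overlap Cryab on the other strand. With Hspb7 these made a class of 4, of which none passed.

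Dnajc12, a DNAJ protein that binds aromatic amino acid hydroxylases (chromosome 10, 63382443 to 63410576, plus strand), was the 1 member that fell. In pair order it had 2261, 2028, 2460, 1070, 3865, 1008 and 2398 normalized counts in WT and 3136, 1871, 1336, 740, 2809, 662.1 and 1402 in OE/OE. It was lower in OE/OE in 6 of 7 pairs and higher in pair 1, and most of its spread was between pairs, which took 84.5% of its squared deviations. The log2 fold change was -0.41 (standard error 0.15, limma unadjusted p = 0.0206), with an exact sign-flip p of 0.0625. Without the pair as a block it was not called (limma unadjusted p = 0.288), nor was it without pair 7, without pair 8 or by the per-gene paired test.

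The other DNAJ genes lay near 0. Dnajb6, which holds back aggregation of polyglutamine proteins, was at 0.07 (95% interval -0.08 to 0.21) and Dnaja2, a cytosolic HSP70 partner, at 0.02 (-0.13 to 0.17), the most abundant of their class per kb with 874.4 and 1954 normalized counts per kb. Dnajb13 was at -0.04 (-0.89 to 0.82) with as few as 3.24 normalized counts in a library. Of the 16 genes in this class 8 were positive and 8 negative, and apart from Dnajc12 they lay between -0.21 and 0.09 (the others being Dnajc24, Dnajc4, Dnajc21, Dnajb2, Dnajc8, Dnajc17, Dnajc2, Dnajc7, Dnajc22, Dnajb5, Dnajc27 and Dnajc9). Of 7 DNAJ genes of the ER membrane none passed (from -0.06 to 0.04, also holding Dnajc1, Dnajc16, Dnajc18, Dnajc25 and Dnajb14), and Dnajb12 was at 0.03 (-0.18 to 0.24) and Dnajc14 at -0.05 (-0.22 to 0.12), the latter with an SD of 0.106. Of 3 vesicle and endosome genes none passed (from 0.05 to 0.12, Dnajc6 being highest), with Dnajc5 (cysteine string protein, of secretory vesicles) at 0.05 (-0.10 to 0.21) and Dnajc13 (RME-8, of endosomes) at 0.06 (-0.14 to 0.26).

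The regulators and partners of the chaperones were measured beside them. Of 30 heat shock factors and cochaperones none passed (23 positive, median 0.04). Hsf1, the master regulator of the heat shock response, had 1036 to 1515 normalized counts in WT and 1178 to 1700 in OE/OE, and was higher in OE/OE in each of the 7 pairs (exact sign-flip p = 0.0156), with a log2 fold change of 0.10 (95% interval -0.04 to 0.24, limma unadjusted p = 0.125), and the per-gene paired test called it higher. Of 8 subunits of the cytosolic chaperonin none passed, and all were positive (median 0.04). Of 22 unfolded protein response genes 1 was lower, Sdf2l1, a BiP cofactor, with a log2 fold change of -0.26 ± 0.10 (SE, limma unadjusted p = 0.0274, limma adjusted p = 1.00) and 6 of 7 pairs lower. It was not called without pair 1, 7 or 8 (log2 fold changes of -0.25, -0.21 and -0.25) or without the block. Xbp1 was at -0.07 (-0.31 to 0.16).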

How the data were processed

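Read pairs were sequenced from the mammary epithelial RNA of 14 mice (7 WT, 7 OE/OE), each in a library of its own. The authors aligned the reads to mm10 (the submitters' processing notes name TopHat2 2.0.10, HTSeq 0.6.0 and DESeq 1.18.0), counted fragments per GENCODE gene, dropped genes that did not reach 10 fragments in 7 or more libraries, and deposited a signal, the counts divided by DESeq size factors. Deposited values were whole multiples of 1 fragment (tolerance 0.01) for 100% of the genes in each library, which gave the depth (20125106 to 41835978 fragments). Shallower libraries carry more counting error, and the spread between mice also includes it.

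Values were tested on log2(normalized count + 1), which understates changes of low genes, with limma 3.58.1 in R 4.3.3 (empirical Bayes with a trend) over all 16124 genes, blocked by littermate pair. A gene was called at an unadjusted p of 0.05 or less, the threshold that the authors used, and Benjamini-Hochberg adjustment was made over all genes. The pairs are littermates per the labels and methods: same-pair deviations correlated at 0.171 to 0.748 (median 0.522), other combinations at a median of -0.151. For single genes the signs of the 7 differences were also flipped in all 128 patterns (exact, two-sided). On the recovered fragments, edgeR 4.0.16 (quasi-likelihood) and DESeq2 1.42.0, with the block, called 597 and 626 genes.

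The members, classes and lists were chosen with earlier results of these data known. The members named are the inducible ones, those called, the 2 of each other class with the highest level per kb of exon, and the 5 with the largest and 2 with the smallest SD; members outside this rule are named only to list a class, a setting's calls or a partner gene. From the other lists, called genes and Hsf1, Xbp1, Fos and Atf3 are named, and Ddit3 as part of a relation. Positions, exon lengths and shared 75-base stretches came from GENCODE M21 (GRCm38), to which all 16124 identifiers matched, and promoters from RefSeq (GRCm38.p6). Alternatives covered pseudocounts of 0.1 and 10, a minimum mean of 50, the block, the trend, other tests, median centring, quantile normalization and each pair left out. On simulated counts of 16124 genes with 200 changed by 1 on the log2 scale, limma recovered 97.5% at the unadjusted and 83.0% at the adjusted threshold. It called 5.14% of unchanged genes. The simulated counts held no pair effect, and genes varied independently. A change of 1 is larger than that of any of the 65 chaperone genes, so these rates do not give the power for them.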

Additional observations from a re-analysis of the deposited data

Results flagged for a closer look

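A library lay far from the other 6 of its group in 10 of the 78 gene and group combinations examined. The measure was Dixon's ratio of the gap to the range, taken on log2(normalized count + 1), above its 95% critical value. Independent combinations would give 3.9 at that value by chance. These were not independent, since genes varied together and some were chosen for their SD, so 10 cannot be read as an excess. The levels beside each ratio are normalized counts, not log2 values. In the OE/OE mouse of pair 4, 4 stress-induced genes were the lowest of their group: Hspa1b with 12640 normalized counts against 24560 for the nearest (ratio 0.624), Hspa1a with 5421 against 12960 (0.623), Dnaja4 with 1018 against 2040 (0.696) and Atf3 with 12040 against 39700 (0.674). Without pair 4 Hspa1b, Hspa1a and Dnaja4 were each called higher in OE/OE.

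Dnajb1 was low in the WT mouse of pair 5, with 5628 normalized counts against 9133 (ratio 0.698). Dnajc10 was low in the OE/OE mouse of pair 5, with 3016 against 3305 (0.578), as was Sdf2l1, with 307.4 against 491.0 (0.662). Hspa12a was low in the WT mouse of pair 1, with 252.2 against 425.3 (0.589). Xbp1 was low in the OE/OE mouse of pair 6, with 8984 against 10360 (0.678), and Dnajb12 was high in the WT mouse of pair 7, with 1957 against 1703 (0.588). These flags describe single libraries, and what set the libraries apart was not tested.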

How the results depend on the processing

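Hsph1 and Dnaja1 were called under all 17 alternatives. Leaving out 1 pair moved the called members from 6 to between 2 and 13, the inducible members called higher from 5 to between 2 and 10, the genes called in all from 614 to between 381 and 1366, and the genes called in the pathway lists from 1 to between 0 and 10. Without the replicate block the genes called in all fell to 182, those of the pathway lists to 0 and the called members to 5, with Dnajc12 lost. The per-gene paired test on untransformed counts, the authors' kind of test, gave 3 inducible members called higher and 3 genes of the pathway lists. The cause of these moves was not tested. Directions that turned were of members and list genes not called: with the per-gene paired test Dnajc3 (0.003), Hspa12a (0.160) and Dnajb13 (0.265), with median centring Hspa13 (0.015), with quantile normalization Hspa9 (-0.023), Dnaja2 (-0.020) and Dnajb13 (0.128), and for Dnajb13 also with a pseudocount of 10 (0.047), edgeR (0.073) and DESeq2 (0.021). Leaving out a pair turned Dnajb9 (-0.042 to 0.301), Dnajc3 (-0.093 to 0.092), Hspa13 (-0.053 to 0.025), Hspa12a (-0.263 to 0.262), Hspb2 (-0.319 to 0.080), Dnajb12 (-0.035 to 0.098), Dnajc13 (-0.005 to 0.094), Dnaja2 (-0.010 to 0.048), Dnajb13 (-0.282 to 0.275) and Atf3 (-0.088 to 0.406), as ranges over the pairs left out. Depth limits the genes with fewest counts, such as Dnajb13.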
